A study of Mus musculus with 14 samples.

Results

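The Hox gene clusters encode homeodomain transcription factors, and their chromatin accessibility was followed here while mouse embryonic stem (ES) cells were driven towards primitive endoderm (PrE) by GATA6. Members were the 38 Hox genes listed for this purpose, 10 in Hoxa, 10 in Hoxb, 9 in Hoxc and 9 in Hoxd. A region of accessible chromatin was assigned to a Hox gene when the nearest start of a protein-coding transcript, within 50 kb of the midpoint of the region, was that gene's. This gave 118 Hox regions of 124598 regions in all, 21 at Hoxa, 35 at Hoxb, 40 at Hoxc and 22 at Hoxd. Of the 38 genes, 35 had at least 1 region, and Hoxa2, Hoxa6 and Hoxa11 had none.

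Accessibility was measured by ATAC-seq, in which a transposase inserts adapters into open chromatin, with 50000 cells for each of 14 libraries. All cells were of KH2, a mouse ES line labelled as strain C57BL/6, and all of them, the 0 h cells included, carried a TRE:GATA6-DSREd2 transgene, which doxycycline (Dox) switches on through a tetracycline-responsive element. The 0 h libraries came from cells without Dox in serum-free 2i medium with LIF. Cells at 2, 4 and 8 h were in serum medium with LIF and Dox at 1 ug/mL throughout. Cells at 16, 24 and 48 h received Dox in this medium for 12 h, followed by serum medium with LIF and without Dox. Each of the 7 time points had 2 libraries, and the labels name neither a sort nor separate cultures. Serum and GATA6 induction began together, so their parts in any difference from 0 h cannot be told apart. A bulk library also cannot tell a region that is open in fewer cells from one that is less open in each cell.

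Hox genes lie in 4 clusters on different chromosomes, with the paralogue groups in the same order along each. Genes at the 3′ end, of low group number, are activated earlier and more anteriorly in the embryo than genes at the 5′ end. In ES cells the clusters are a classic target of Polycomb repression, and CTCF sites divide them into domains. Retinoic acid, caudal (Cdx) factors and the TALE cofactors of the Pbx and Meis families are known to act on Hox genes or with their products. Primitive endoderm is an extraembryonic lineage that forms in the blastocyst, before the embryo has an anteroposterior Hox pattern.

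A region was called in a library when a deposited peak lay over at least 1 bp of it, and it was gained when both libraries of a time point and neither 0 h library called it, or lost in the reverse case. These are classes of calls with no test, because 2 libraries against 2 cannot give an exact two-sided p below 0.333. The order of the time points was tested over all 14 libraries with an exact two-sided permutation test. Adjusted p-values were from the Benjamini-Hochberg procedure over all 79559 regions called in 2 to 12 libraries, and "rose" and "fell" are used for regions below 0.05. The score of a peak has no stated scale and is given as its percentile within the list of its own library.

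Promoter sequences are shown first, for genes whose promoter was called in both 48 h libraries and in neither 0 h library. These were Hoxa4, Hoxa5, Hoxa10 and Hoxd9. The RefSeq promoter table for GRCm38.p6 matched 22 of the 38 genes with 24 sequences, among them Hoxa5, Hoxa10 and Hoxd9. The bases before the start are printed 5′ to 3′ on the strand of the gene, without annotated untranslated parts. Capitals mark the words that were searched on both strands, which are of 5 kinds. The 4 GATA words, bound by GATA factors, were AGATAA and its relative AGATAG, together with TGATAA and its relative TGATAG. The 4 core words of the CTCF motif were AGAGGGC and its relative AGATGGC, together with AGGGGGC and its relative AGGTGGC. The others were the PBX-HOX word TGATTNAT and the retinoic acid response elements DR5 and DR2. No match of one kind shared a base with a match of another kind in the printed sequences. The Hoxa5 stretch is chr6:52204588-52204837 on the minus strand, the Hoxa10 stretch is chr6:52240855-52241104 on the minus strand, and the Hoxd9 stretch is chr2:74697513-74697726 on the plus strand.
Hoxa5: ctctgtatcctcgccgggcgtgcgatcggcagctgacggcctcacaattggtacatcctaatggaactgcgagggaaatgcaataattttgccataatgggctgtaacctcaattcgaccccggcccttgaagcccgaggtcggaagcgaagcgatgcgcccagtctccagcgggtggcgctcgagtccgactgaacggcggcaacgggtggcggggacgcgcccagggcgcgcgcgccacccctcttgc
Hoxa10: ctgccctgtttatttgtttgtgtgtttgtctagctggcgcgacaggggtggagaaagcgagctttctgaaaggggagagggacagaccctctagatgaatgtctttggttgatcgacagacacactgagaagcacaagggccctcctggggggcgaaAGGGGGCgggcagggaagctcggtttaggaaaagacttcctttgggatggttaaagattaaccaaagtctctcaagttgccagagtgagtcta
Hoxd9: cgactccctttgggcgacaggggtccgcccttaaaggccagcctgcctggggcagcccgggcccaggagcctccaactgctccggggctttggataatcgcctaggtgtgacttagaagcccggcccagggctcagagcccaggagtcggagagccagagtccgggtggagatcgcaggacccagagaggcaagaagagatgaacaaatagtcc
The Hoxa5 stretch had a GC content of 63.6% and 28 CpG dinucleotides in 250 bases, and it held none of the words. The Hoxa10 stretch had a GC content of 51.6%, 7 CpG dinucleotides and 1 CTCF core word. The Hoxd9 stretch had 63.6% GC and 10 CpG dinucleotides in 214 bases, again with none of the words. No GATA word was present in any of the 3 stretches.

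Away from promoters, 300 bases around the midpoint are shown for 4 regions, the first in order of trend p, with ties in order of percentile, among gained or lost Hox regions outside a promoter window and an untranslated exon part. The sequences are from GRCm38.p6 on the strand of the nearest gene, which is the plus strand for all 4. The regions near Hoxb3 (chr11:96327178-96327477) and Hoxc4 (chr15:103069274-103069573) rose with time, and those near Hoxb1 (chr11:96374868-96375167) and Hoxc4 (chr15:103041101-103041400) fell.
Hoxb3, rose: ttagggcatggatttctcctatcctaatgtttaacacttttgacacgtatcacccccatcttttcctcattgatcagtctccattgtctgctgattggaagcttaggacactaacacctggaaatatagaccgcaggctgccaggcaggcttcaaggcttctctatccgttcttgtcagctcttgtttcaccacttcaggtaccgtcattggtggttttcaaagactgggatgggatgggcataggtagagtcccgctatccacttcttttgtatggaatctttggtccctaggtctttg
Hoxc4, rose: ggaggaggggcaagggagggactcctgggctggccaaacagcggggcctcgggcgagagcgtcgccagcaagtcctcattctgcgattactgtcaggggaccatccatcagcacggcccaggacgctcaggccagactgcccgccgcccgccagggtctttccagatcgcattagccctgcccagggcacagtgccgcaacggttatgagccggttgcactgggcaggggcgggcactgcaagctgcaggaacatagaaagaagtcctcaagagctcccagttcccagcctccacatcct
Hoxb1, fell: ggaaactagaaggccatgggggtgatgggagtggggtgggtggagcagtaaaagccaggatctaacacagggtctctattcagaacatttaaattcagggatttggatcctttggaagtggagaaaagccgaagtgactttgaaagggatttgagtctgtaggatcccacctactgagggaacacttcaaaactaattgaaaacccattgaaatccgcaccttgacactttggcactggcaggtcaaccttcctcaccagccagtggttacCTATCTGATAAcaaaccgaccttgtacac
Hoxc4, fell: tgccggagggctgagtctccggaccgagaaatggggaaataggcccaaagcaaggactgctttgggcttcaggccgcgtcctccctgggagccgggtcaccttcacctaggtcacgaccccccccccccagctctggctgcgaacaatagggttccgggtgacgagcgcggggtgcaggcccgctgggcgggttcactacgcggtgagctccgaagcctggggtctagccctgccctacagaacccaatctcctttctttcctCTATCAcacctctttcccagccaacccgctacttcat
Both regions that rose held none of the searched words. The Hoxb1 region held 2 overlapping GATA words, on opposite strands, and the falling Hoxc4 region held 1. The rising Hoxb3 region had 46.3% GC and 5 CpG dinucleotides, whereas the rising Hoxc4 region had 64.3% GC and 16 CpG dinucleotides, so the pair did not share a base composition.

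Over the whole series the lists held between 55588 and 65073 peaks each and covered between 23.05 and 31.17 Mb. Near the PrE markers Gata4, Sox17, Pdgfra and Foxa2 more regions were gained than lost at 48 h, with 8 gained and 1 lost of 20 at Gata4, 7 and 1 of 11 at Sox17, 9 and 2 of 22 at Pdgfra and 7 and 1 of 18 at Foxa2. Sox7 had 3 gained and 1 lost of 6. Of 126 regions near 7 ES genes, Nanog among them, 24 were gained (19.0%, against 14.5% of all regions) and 30 lost (23.8%, against 16.6%). Gata6 itself had 3 gained and 0 lost of 18 regions and a promoter called in all 14 libraries, and peak lists give no level of the transgene. Regions near genes of neural and mesodermal cells, which use Hox genes, were gained in 7 and lost in 9 cases of 53 (13.2% and 17.0%), near the shares of all regions, and those near trophectoderm genes were gained in 6 and lost in 6 cases of 30 (20.0% each). The part of such cells in the Hox calls was not tested, and expression was not measured in these files.

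Most Hox promoters were without a peak in ES cells, and some of them had one by 48 h. A promoter was counted as called when a peak lay in the window from 250 bases before to 50 after a protein-coding transcript start. Both 0 h libraries called 6 of the 38 Hox promoters, against 51.3% of the promoters of all 21951 protein-coding genes. Both 48 h libraries called 10, against 54.9%. Of the 38 Hox promoters 4 were gained at 48 h, against 3.64% of all promoters, and 0 were lost, against 2.10% of all. Only a promoter called in neither 0 h library could be gained, and only one called in both could be lost. As fewer Hox promoters were called at 0 h, these shares do not compare like sets. By library the number of Hox promoters called was 7 and 8 in the 0 h pair, 8 and 8 after 2 h of induction, 5 and 9 after 4 h, 10 and 11 after 8 h, 12 and 8 after 16 h, 15 and 15 after 24 h, and 12 and 17 in the 48 h pair. All 4 libraries from 24 and 48 h lay above both 0 h libraries, while the share of all promoters called moved only between 53.1% and 58.4%.

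**Figure D1:**
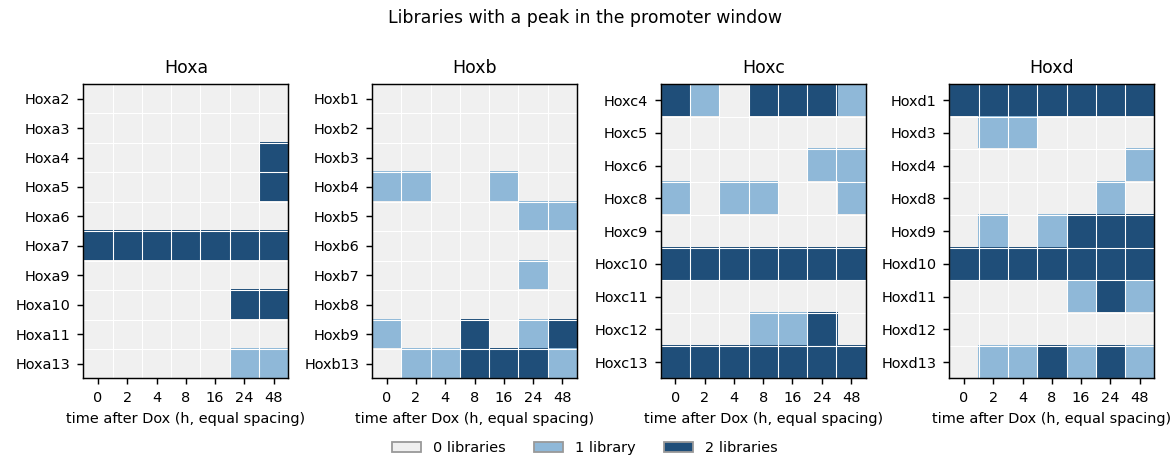
Number of libraries (0, 1 or 2, by shade) with a peak in the promoter window of each of the 38 Hox genes at the 7 time points, with equal spacing of the time points and genes ordered by paralogue group. The promoters of Hoxa7, Hoxc10, Hoxc13, Hoxd1 and Hoxd10 were called in all 14 libraries, and those of Hoxa4, Hoxa5, Hoxa10 and Hoxd9 turned from neither library at 0 h to both at 48 h.

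The 5 Hox promoters called in all 14 libraries belonged to Hoxa7, Hoxc10, Hoxc13, Hoxd1 and Hoxd10, which come from 3 clusters and from both ends of the paralogue series. Hoxb had no promoter of this kind. Hoxc13, known for its part in hair and nail formation, had the Hox region with the highest mean percentile, 87.5, centred 48 bases before its start and with percentiles from 76.7 to 93.2 over the 14 libraries. The Hoxd10 region, 295 bases before the start of a gene that patterns the lumbar spinal cord and limb, had percentiles of 42.9 and 40.9 at 0 h and of 79.9 and 86.9 at 48 h. It was thus called throughout, and its place in the ranking of peaks was higher in both 48 h libraries than in both 0 h libraries. The Hoxa7 region, centred 33 bases after a start, stayed between percentiles 52.3 and 76.7, with 75.8 and 75.5 at 0 h and 69.6 and 67.1 at 48 h. Its rank was lower in both 48 h libraries than in both 0 h libraries, but within the range of the libraries between. Away from the promoters, the Hoxc12 region 4878 bases before the start was also called in all libraries, but with percentiles of 98.7 and 96.9 at 0 h, 68.8 and 79.7 at 24 h and 13.4 and 20.6 at 48 h. It was the highest ranked of all Hox regions in both 0 h libraries and lay lower in the 48 h pair than in all other libraries, a course that its calls do not show. A further 14 Hox promoters were called in none of the libraries, among them those of Hoxb1, Hoxb2, Hoxb3, Hoxa9, Hoxa11, Hoxc9, Hoxc11 and Hoxd12, and 19 were called in some.

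The 4 gained promoters lay in 2 clusters and were first called in both libraries at 16 h or later. Hoxa4 and Hoxa5, neighbours in the middle of Hoxa, were called in both 48 h libraries and in none of the other 12. The Hoxa5 region, which spans the start of this regulator of cervical and thoracic patterning and of lung development, had percentiles of 36.2 and 51.3, and the Hoxa4 region, centred 288 bases before the start, had 4.12 and 38.1, near the bottom of the list in 1 library. The Hoxa10 region, 80 bases before a start of a gene needed for the uterus and the lumbar vertebrae, was called in both libraries at 24 h, with percentiles of 66.6 and 63.9, and in both at 48 h, with 53.7 and 62.7. It was not called in any of the 10 earlier libraries, and it rose with time (exact permutation test, adjusted p = 0.0130). When peaks up to 100 bp apart were merged, the region that then held it was called in both 0 h libraries as well, and its adjusted p was 0.938. The Hoxd9 window was called in 1 library at 2 h, 1 at 8 h and both from 16 h on. The Hoxd9 region as a whole, which reaches into the first exon and is centred 422 bases after the start, was already called in both 0 h libraries, whose peaks lay outside the promoter window. When the window was widened to 1 kb on either side, the Hox promoters called in both 0 h libraries numbered 10.

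Other promoters were called in a part of the induced libraries. Hoxb13, the most 5′ gene of its cluster and one used in the tail bud and prostate, was called at its promoter in 0 libraries at 0 h, 1 at 2 h, 1 at 4 h, both at 8, 16 and 24 h and 1 at 48 h. Hoxd13, used in digits, was called in 0 libraries at 0 h, in both at 8 and 24 h and in 1 at each of the other induced time points. Hoxd11 and Hoxc12 had calls in the pair of 24 h libraries and in at most 1 library of every other time point. Hoxa13, also a gene of digits and the urogenital tract, was called in 1 library at 24 h and 1 at 48 h. Hoxb5 and Hoxc6 had the same course as Hoxa13. Hoxb9 was called in 1 library at 0 h, both at 8 h, 1 at 24 h and both at 48 h. Hoxc4 was called in both libraries at 0 h, 1 at 2 h and 0 at 4 h. It was then called in both at 8, 16 and 24 h and in 1 at 48 h. Hoxb4, Hoxb7, Hoxc8, Hoxd3, Hoxd4 and Hoxd8 had at most 1 call at every time point. By position, the promoters called in both libraries went from 3 at 0 h to 6 at 48 h of 16 genes in groups 9 to 13, from 1 to 2 of 11 in groups 5 to 8 and from 2 to 2 of 11 in groups 1 to 4. With 38 genes these counts are small, and their difference between positions was not tested. The unchanged count of groups 1 to 4 held Hoxd1 at both ends, Hoxc4 at 0 h only and Hoxa4 at 48 h only.

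At the level of regions, the Hox clusters had shares of gains and losses near those of the genome at 48 h and smaller shares of gains early. At 48 h 18 of 118 Hox regions were gained (15.3%, against 14.5% of all regions) and 15 were lost (12.7%, against 16.6%), while 19 were called in both libraries at both ends. At 2 h 4 Hox regions were gained (3.39%, against 8.64%) and 10 lost (8.47%, against 6.25%), and at 4 h 3 were gained (2.54%, against 10.1%) and 10 lost (8.47%, against 7.37%). The early gains were thus below the share of all regions. From 8 h on the shares lay closer together, with 12 gained (against 11.1%) and 10 lost (against 9.99%) at 8 h, 13 gained (against 13.3%) and 8 lost (against 9.71%) at 16 h, and 14 gained (against 11.6%) and 14 lost (against 13.2%) at 24 h. These comparisons share the 0 h libraries. The 48 h count of gains also depended on 1 library, being 32 (27.1%, against 19.5% of all regions) without the first 48 h replicate.

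**Figure D2:**
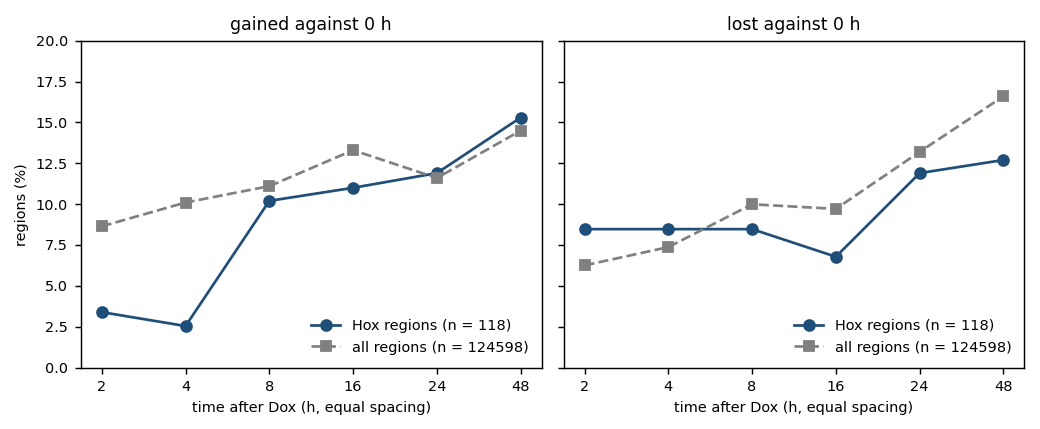
Percent of the 118 Hox regions (circles) and of all 124598 regions (squares) that were gained (left) or lost (right) against 0 h at each time point, with equal spacing of the time points and 2 libraries per time point. Hox gains were 3.39% at 2 h and 2.54% at 4 h, below 8.64% and 10.1% of all regions, and reached 15.3% at 48 h, beside 14.5%.

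The number of Hox regions called was lowest at 2 and 4 h. It was 46 and 45 in the 0 h pair, 37 and 39 after 2 h of induction, 36 and 39 after 4 h, 47 and 50 after 8 h, 53 and 49 after 16 h, 53 and 48 after 24 h, and 51 and 60 in the 48 h pair. Every library of 2 and 4 h lay below both 0 h libraries and every library from 8 h on lay above them, although the lists of 2 and 4 h held from 58322 to 62604 peaks, beside 56924 and 60483 in the 0 h pair. Hox regions ranked lower than regions in general, with a median of 23.4 for the mean percentile of a region against 32.8 over all regions. Of the 118, 12 were called in all 14 libraries (10.2%, against 15.1% of all regions) and 21 in a single library (17.8%, against 17.9%). A score near the bottom of a list is close to the limit of calling, so a missing call there need not mean closed chromatin.

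By cluster, the counts at 48 h were small, and the difference between clusters was not tested. Hoxa had 5 regions gained (23.8%) and 1 lost (4.76%) of 21, and Hoxb had 8 gained (22.9%) and 2 lost (5.71%) of 35, beside 14.5% gained and 16.6% lost of all regions. Hoxc had 4 gained (10.0%) and 9 lost (22.5%) of 40, and Hoxd had 1 gained (4.55%) and 3 lost (13.6%) of 22. More regions were thus gained than lost at Hoxa and Hoxb, and more were lost than gained at Hoxc and Hoxd. By position, 8 regions were gained (16.0%) and 9 lost (18.0%) of 50 in groups 1 to 4, 3 gained (15.0%) and 1 lost (5.00%) of 20 in groups 5 to 8, and 7 gained (14.6%) and 5 lost (10.4%) of 48 in groups 9 to 13.

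**Figure D3:**
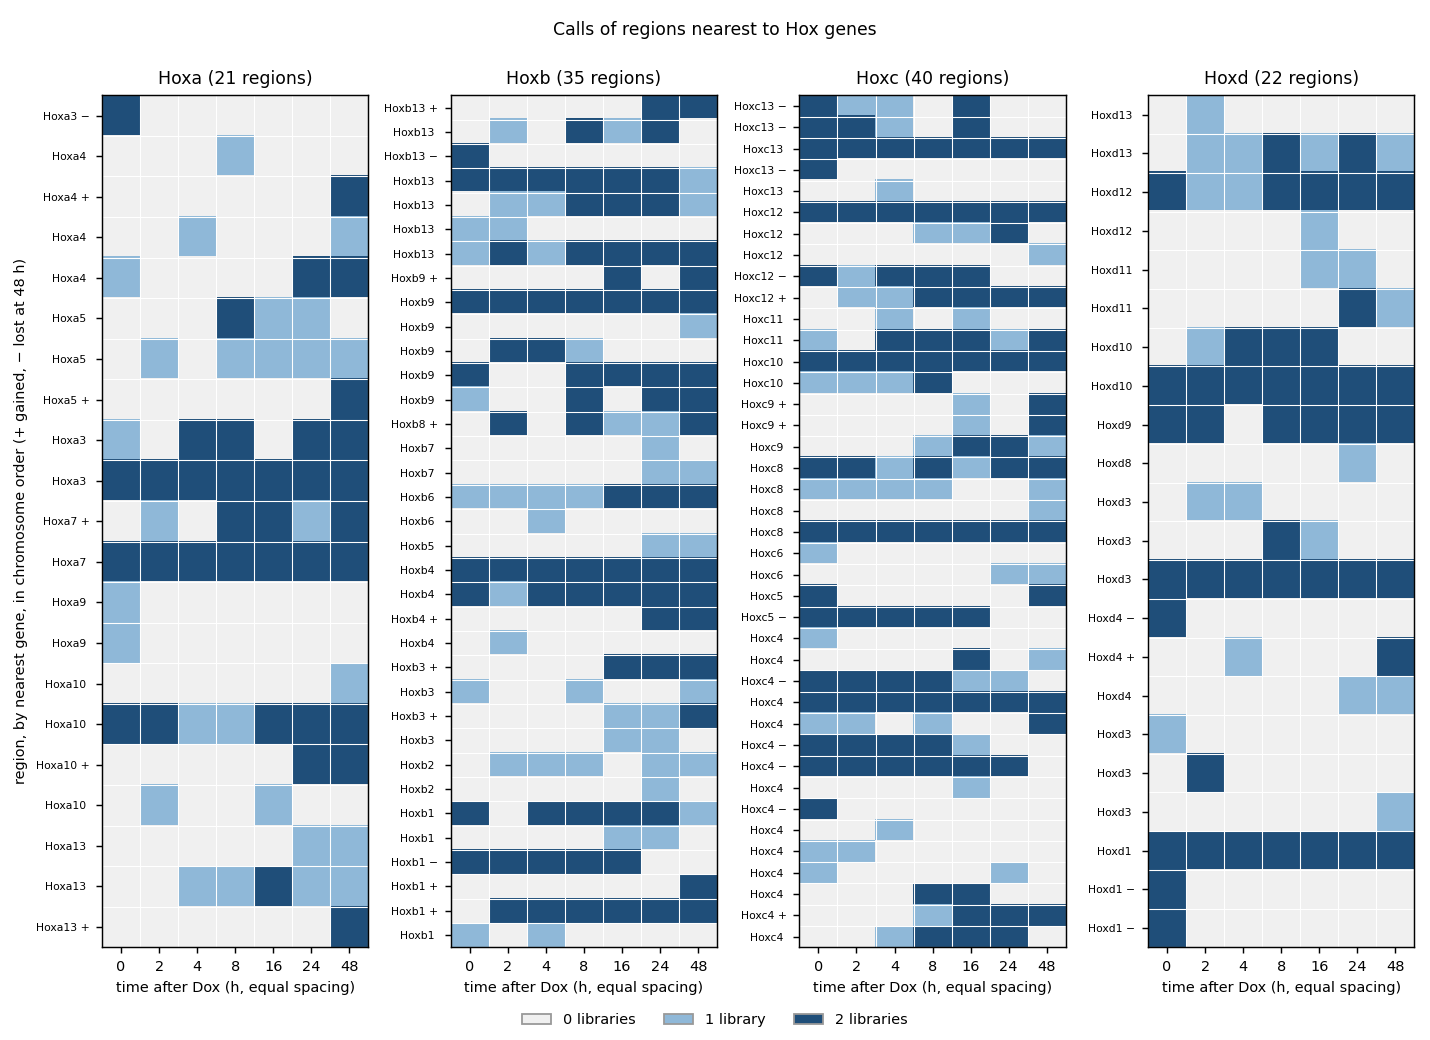
Number of libraries (0, 1 or 2, by shade) that called each of the 118 Hox regions at the 7 time points, with equal spacing of the time points, regions in chromosome order within each cluster and each labelled by its nearest gene. Plus and minus signs mark the 18 regions gained and the 15 lost at 48 h, and 12 rows are dark at every time point.

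Coverage, which does not depend on how peaks were merged or assigned, was higher at 48 h than at 0 h in all clusters but Hoxc. The span of Hoxa from its first to its last member gene (chr6:52162417-52260880) lay in peaks for 2.29% ± 0.316 at 0 h and 3.80% ± 0.529 at 48 h (SD, n = 2 libraries), and both 48 h values (3.43% and 4.18%) exceeded both 0 h values (2.52% and 2.07%). Hoxb (chr11:96194316-96368256) went from 1.84% ± 0.0289 to 3.55% ± 0.163, with values of 3.44% and 3.67% at 48 h that lay above 1.86% and 1.82% at 0 h. Hoxc (chr15:102921103-103036852) had the highest coverage at 0 h, 5.77% ± 0.188, and 5.14% ± 0.834 at 48 h, with overlapping values. Its lowest mean was 3.66% ± 0.510 at 24 h, when both libraries lay below both 0 h libraries (5.64% and 5.90%). With only the 50000 highest peaks of each library, the Hoxc means were 4.65% at 0 h and 4.69% at 48 h, so its lower mean at 48 h was not kept. Hoxd (chr2:74668310-74765142) had 2.76% ± 0.679 at 0 h and 4.24% ± 1.30 at 48 h, and both 48 h values (3.32% and 5.16%) lay above both 0 h values (2.28% and 3.24%), but the nearest of them, 3.32% and 3.24%, lay closer together than the replicates did. Over the 4 clusters together the values were 2.98% and 3.13% at 0 h and 3.68% and 4.56% at 48 h, while the genome covered by peaks went from 27.97 and 29.86 Mb to 23.05 and 25.59 Mb.

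**Figure D4:**
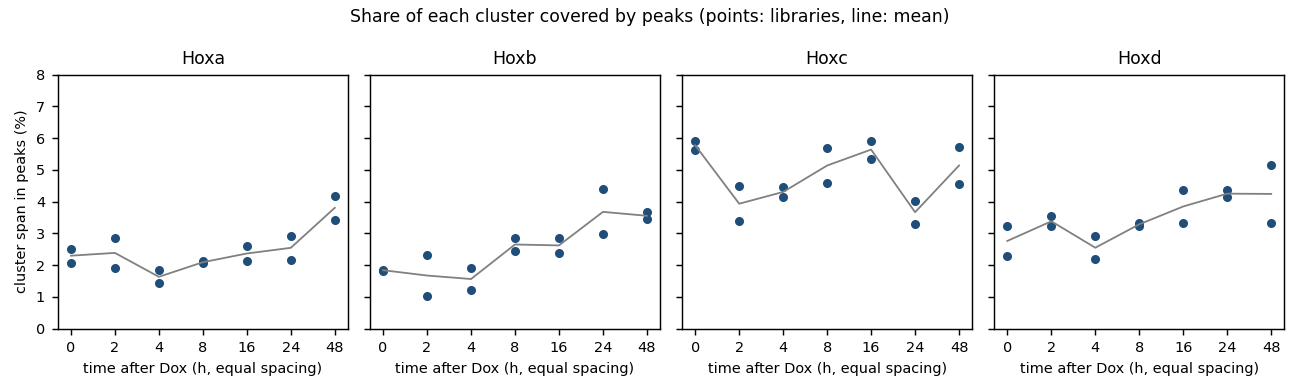
Percent of the span of each Hox cluster that lay in peaks, for each library (points) and as the mean of 2 libraries (line) at the 7 time points, with equal spacing of the time points. Hoxa and Hoxb were higher in both 48 h libraries than in both 0 h libraries, Hoxc started highest at 5.77%, and the 48 h libraries of Hoxd lay apart at 3.32% and 5.16%.

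Over the time course, 7 Hox regions rose and 4 fell of 83 tested, which is 8.43% and 4.82%, against 12.1% and 12.3% of all regions tested. Single libraries moved these counts: leaving out 1 gave from 5 rising (either 8 h library) to 12 rising (any 1 library of 16 or 24 h), and from 3 falling (either 8 h library) to 12 falling (the first of 2 h or of 4 h). Without either 0 h library 11 rose, without the second of 2 h or of 4 h 11 fell, and without either 48 h library 10 fell. The share of all regions that passed moved as well. Rising and falling together, it was 24.4% of all regions tested and ran from 18.4% to 33.9% with 1 library left out. The Hox share was 13.3% and ran from 9.64% to 26.0%. The rising regions lay near Hoxb3 (2), Hoxb4, Hoxb13, Hoxa10, Hoxc4 and Hoxc12, and the falling ones near Hoxc4 (2), Hoxc5 and Hoxb1. No Hoxd region passed. The test has few attainable p-values, and 13 more Hox regions, 5 gained and 8 lost, shared the next adjusted p of 0.0541. With the 50000 highest peaks of each library, 29 Hox regions of 59 tested passed (49.2%, against 46.8% of all regions tested), 19 rising and 10 falling.

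Hoxb had 4 rising regions of 26 tested (15.4%, against 12.1% of all regions tested). Hoxc had 2 of 28 (7.14%), Hoxa 1 of 15 (6.67%) and Hoxd 0 of 14, and the difference between clusters was not tested. The region 735 bases before a start of Hoxb3, a gene of the hindbrain, was called in neither library at 0, 2, 4 and 8 h and in both at 16, 24 and 48 h (exact test, adjusted p = 0.0130). Its percentiles were 38.1 and 38.1 at 16 h, 78.2 and 62.3 at 24 h and 89.7 and 85.3 at 48 h, so both 48 h libraries ranked it above all earlier ones. It spans 930 bp in an intron of Hoxb3. A second Hoxb3 region, 1788 bases before a start, was called in 1 library at 16 h, 1 at 24 h and both at 48 h, with percentiles between 3.64 and 33.4 (exact test, adjusted p = 0.0451). This call was lost without the 0 h libraries and without any single one of 5 libraries, both of 8 h, both of 48 h and the second of 24 h, with adjusted p from 0.0526 to 0.0725 (exact tests). At Hoxb4, a neighbour also used in the hindbrain and in blood stem cells, a coding-exon region 650 bases after the start was called in both libraries at 24 h, with percentiles of 8.52 and 35.4, and in both at 48 h, with 48.5 and 46.0 (exact test, adjusted p = 0.0130). When peaks up to 100 bp apart were merged, the region that then held it was called in as many libraries at 0 h as at 48 h. The distal region 21183 bases before Hoxb13 was called in both libraries at 24 and 48 h and in none before, at percentiles between 23.8 and 39.1 (exact test, adjusted p = 0.0130).

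At Hoxc, an intergenic region 35028 bases beyond the start of Hoxc4 was called in neither library at 0, 2 and 4 h, in 1 at 8 h and in both from 16 h on (exact test, adjusted p = 0.0130). Its percentiles ran from 2.63 to 60.0, with 2.63 and 46.6 in the 48 h pair, so its rank varied widely between replicates. When at least 50% of the region had to be covered, it was called in 1 library more at 48 h than at 0 h (exact test, adjusted p = 0.0595). The region 6533 bases beyond the start of Hoxc12 was first called in 1 library at 2 h and 1 at 4 h, and in both from 8 h on, with percentiles of 19.8 and 10.8 at 8 h and 58.9 and 68.5 at 48 h (exact test, adjusted p = 0.0451). Its rank was higher in both 48 h libraries than in both libraries of each earlier time point. Without the 0 h libraries, and so within serum medium, its adjusted p was 0.238 (exact test), and the call was also lost without either 0 h library, either 8 h library or the first 2 h library (0.0510 to 0.0698).

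Falling regions were at Hoxb1, Hoxc5 and Hoxc4. The region 9265 bases beyond the start of Hoxb1, a gene that sets the identity of a hindbrain rhombomere, was called in all 10 libraries up to 16 h and in none of the 4 at 24 and 48 h (exact test, adjusted p = 0.0130). Its percentiles were 79.1 and 67.8 at 0 h, 44.1 and 25.9 at 8 h and 38.5 and 24.6 at 16 h, lower in both libraries of 8 and 16 h than in any earlier library. Hoxc5 lost a region in an untranslated exon part, 1943 bases after the start, along the same course, with percentiles of 54.5 and 70.5 at 0 h, 5.88 and 17.3 at 16 h and no call at 24 and 48 h (exact test, adjusted p = 0.0130). Near Hoxc4, a gene of the cervical region, the region 6855 bases beyond the start was called in both libraries up to 8 h, in 1 at 16 h and in none later (exact test, adjusted p = 0.0130, or 0.0533 with peaks up to 100 bp apart merged). The region 6701 bases before a start of Hoxc4 was called in both libraries up to 8 h, in 1 at 16 h, in 1 at 24 h and in neither at 48 h, with percentiles of at most 46.5 (exact test, adjusted p = 0.0451). Its call was lost with the 50000 highest peaks (exact test, adjusted p = 0.0516), without the 0 h libraries (0.0622) and without any single one of the same 5 libraries as for the second Hoxb3 region.

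Next to the Hoxc4 region at 6855 bases, another one 7748 bases beyond the start was among the most highly ranked in the clusters before it was lost. It had percentiles of 73.9 and 78.1 at 0 h, between 94.4 and 96.7 at 2, 4 and 8 h, 83.7 and 82.8 at 16 h and 51.2 and 43.4 at 24 h, and it was called in neither library at 48 h. Its rank was higher in all 6 libraries from 2 to 8 h than in both 0 h libraries, and its adjusted p was 0.0541. Including it, 4 of the 15 lost regions had Hoxc4 as the nearest gene, a gene with 15 regions, the most of any member. Hoxc13 had 3 lost regions, 48148 and 35084 bases before its start and 5489 bases after it, beside its promoter region that was called in all libraries.

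Of the 15 lost regions, 7 were called in both 0 h libraries and in none of the 12 induced libraries (46.7%, against 22.0% of all lost regions), a difference that was not tested. They lay near Hoxa3, Hoxb13, Hoxc13, Hoxc4, Hoxd4 and Hoxd1 (2). Their percentiles at 0 h were between 2.25, in 1 library for the Hoxc4 region 16493 bases beyond the start, and 68.4, in 1 library for the Hoxd1 region 27164 bases beyond the start. All 3 lost Hoxd regions, 2040 bases before a start of Hoxd4 and 14999 and 27164 bases beyond the start of Hoxd1, were of this kind. None of them was called at 2 h, which is also the first time point in serum. The other lost regions were first called in neither library at 8 h (2), 24 h (4) and 48 h (2). Both of those first missing at 8 h, the distal ones before Hoxc13, were called again in both 16 h libraries and in none later.

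The times at which gained Hox regions were first called were set beside those of all gained regions, with no test. Of the 18 gained regions, 2 were first called in both libraries at 2 h, another 2 at 8 h, 3 more at 16 h, then 3 at 24 h, and the remaining 8 at 48 h (44.4%, against 37.4% of all gained regions). None was first called in both at 4 h, against 12.0% of all gained regions. A region 34331 bases beyond the start of Hoxb1 was the only one of them called in both libraries at every induced time point, with percentiles of 47.1 and 35.3 at 2 h and 87.6 and 83.3 at 48 h, and its rank was lower in both 2 h libraries than in every later one. Close to it, another intergenic Hoxb1 region, 32312 bases beyond the start, was called in the 48 h libraries only, at percentiles of 54.7 and 66.0. In the region 16746 bases before Hoxa13 the 48 h libraries gave percentiles of 48.0 and 16.1, with no call in the other 12. The gained regions not described so far lay near Hoxa7, Hoxb8, Hoxb9, Hoxc9 (2) and Hoxd4, and none of these passed the trend test.

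A further 9 Hox regions (7.63%, against 13.9% of all regions) were called in neither 0 h nor 48 h library but in both of a time point between. The Hoxd10 region 3837 bases before the start was called in 1 library at 2 h, in both at 4, 8 and 16 h and in neither later. Near Hoxc4 a region 33478 bases beyond the start was called in both libraries at 8 and 16 h only, and the one 49313 bases beyond it in 1 at 4 h and both at 8, 16 and 24 h. The last of these was also the Hox region closest to the 50 kb limit on the inside. The nearest region beyond the limit lay 58910 bp from the start of Hoxc13 and was called in 1 library.

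Gained Hox regions lay nearer to starts and had a higher median ratio of observed to expected CpG than lost ones. Neither difference was tested. Of the 18 gained regions, 7 had their midpoint within 1 kb of a start (38.9%, against 10.2% of all gained regions), and of the 15 lost regions 0 did (against 5.21% of all lost regions). Over all Hox regions the share was 34.7%, against 16.3% of all regions. Among the gained Hox regions 9 had an intergenic midpoint, 5 an intronic one, 3 one in an untranslated exon part and 1 one in a coding exon, and among the lost regions 10 were intergenic. In 300 bases around the midpoint the median GC content was 56.8% for gained and 49.0% for lost Hox regions, and the median ratio of observed to expected CpG was 0.542 and 0.183. For the 118 Hox regions together the medians were 58.0% and 0.576, near those of the gained regions and above those of the lost ones. Over all gained and all lost regions of the genome these medians were 48.7% and 49.0% for GC content and 0.202 and 0.193 for CpG.

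GATA words, read here because GATA6 was the induced factor, were counted in the same windows, with no test of the differences. Of the 18 gained Hox regions 8 held at least 1 of the 4 words (44.4%), against 67.9% of all gained regions, and of the 15 lost Hox regions 7 did (46.7%), against 32.5% of all lost regions. All Hox regions together had a share of 29.7%, against 45.1%. The gained Hox regions with a GATA word included both distal Hoxb1 regions, the Hoxa13 region and the rising Hoxc12 region, while the rising regions at Hoxb3, Hoxb4, Hoxb13, Hoxa10 and Hoxc4 held none in this window. The words hold more A and T than G and C, and the GC content of the windows differed between these sets as given above. Its part in the shares was not tested.

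CTCF core words were found in 7 of the 12 Hox regions called in all libraries (58.3%, against 35.8% of all regions called in all libraries). The 7 were near Hoxa7, Hoxb9, Hoxb4, Hoxc12, Hoxc10, Hoxc8 and Hoxd10. In the lost Hox regions 1 of 15 held such a word (6.67%, against 22.0% of all lost regions), and in the gained ones 5 of 18 (27.8%, against 25.9%). The PBX-HOX word was present in 2 of 118 Hox regions (1.69%, against 3.22%), and DR5 and DR2 elements in 0 of 118, against 0.188% and 0.249% of all regions. In the 24 promoter windows of the RefSeq table GATA words were present in 7 (29.2%, against 29.8% of all 32851 windows), CTCF core words in 3 (12.5%, against 27.6%) and the PBX-HOX word in 2 (8.33%, against 3.22%). A word is a match of letters and does not show binding, and the members of a cluster share their surroundings, so these shares are descriptions.

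**Figure D5:**
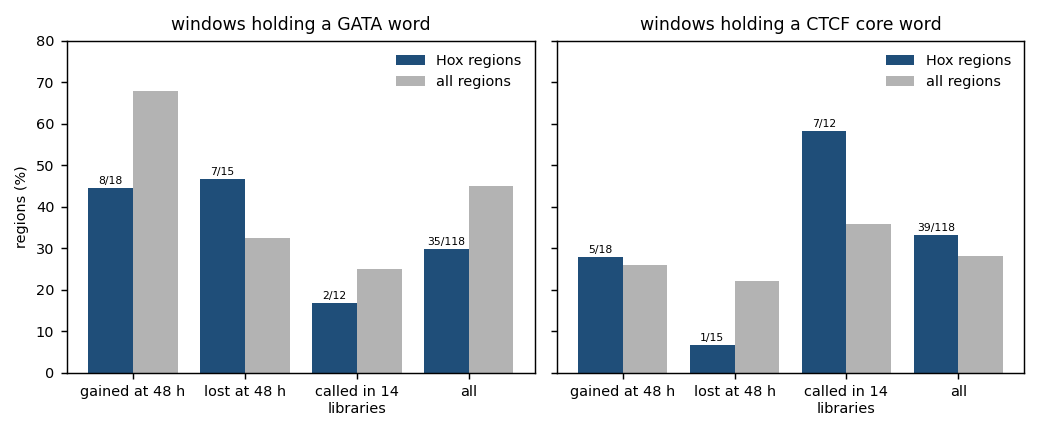
Percent of regions with at least 1 GATA word (left) or CTCF core word (right) in 300 bases around the midpoint, for Hox regions (dark bars, with counts) and all regions (grey bars), by class of call. GATA words were in 8 of 18 gained Hox regions beside 67.9% of all gained regions, and CTCF core words in 7 of 12 Hox regions called in all libraries beside 35.8%.

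For genes known to work with or on the Hox clusters, counts are given beside the shares over all regions, which were 14.5% gained and 16.6% lost at 48 h, and 12.1% rising and 12.3% falling of those tested. For the 9 TALE cofactor genes 9 regions were gained (11.8%) and 15 lost (19.7%) of 76, and 5 rose and 6 fell of 47 tested. Most of the lost ones lay near Pknox2, with 1 gained and 6 lost of 18 regions, and Pknox1, with 0 gained and 4 lost of 9. Meis1 had 5 gained and 0 lost of 14 regions, and its promoter went from 1 of 2 libraries at 0 h to both at 16, 24 and 48 h, as did that of Meis2. The promoter of Pbx2 was called in neither library up to 16 h and in both at 24 and 48 h. The 6 caudal and ParaHox genes had 4 regions gained (10.0%) and 10 lost (25%) of 40, with 3 rising and 4 falling of 24 tested, and the promoter of Cdx4, an activator of Hox genes in the embryo, had a call in both 0 h libraries, in 1 library of the 2 h pair, in 1 of the 4 h pair and in none later. Polycomb and trithorax genes, 20 in all, had 25 gained (14.3%) and 24 lost (13.7%) of 175, and 15 rose and 13 fell of 101 tested. In the 17 genes flanking the clusters 25 regions were gained (17.0%) and 24 lost (16.3%) of 147, and 10 rose and 9 fell of 88 tested. Evx2, which adjoins Hoxd13, had 2 gained and 0 lost of 6 regions, and Evx1, which adjoins Hoxa13, had 0 gained and 2 lost of 5.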

How the data were processed

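ATAC-seq peak lists of 14 libraries, 2 for each of 7 time points, were analysed. Per the labels and the study's methods, the authors aligned reads to mm10 (GRCm38), called peaks with the ENCODE ATAC-seq pipeline for each library, kept those that passed the irreproducible discovery rate between pseudoreplicates (0.05 in the file names) and removed blacklisted regions. The deposited score of each peak has no stated scale, so only its rank within a library was used. The lists hold no read counts, so the depth behind a call is unknown, a count model could not be run, and a missing peak is not a measure of closed chromatin. deepTools is also named in the submitters' processing notes.

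Peaks of all libraries that shared at least 1 bp were merged to 124598 regions, each assigned to the nearest start of a protein-coding transcript (GENCODE M21, within 50 kb of its midpoint). Gained and lost regions were called from 2 libraries against 2, with no test. The trend statistic was the sum of time-point ranks of the calling libraries, compared over all placements of the calls among 14 libraries (exact, two-sided), and adjusted by the Benjamini-Hochberg procedure with a threshold of 0.05. The smallest p that it can give here is 0.000666. Promoter windows ran from 250 bases before to 50 after each start. Values in each library were examined for the 24 gained, lost or trending regions with the smallest trend p and for the highest ranked region of each cluster among those called most often. The courses of other promoters, of the regions called only between the ends, of the Hoxc12 region 4878 bases before the start, and of Evx1, Evx2, Cdx4, Meis1, Meis2 and Pbx2 were chosen after their values were seen. The Hox members, the gene lists and the searched words were chosen with earlier results of these data known. The study states in general that replicate experiments were performed independently, while the labels only number the libraries and name no separate cultures. The p-values compare the order of the calls with all placements among the 14 libraries, taken as independent units. If the 2 libraries of a time point were not independent, the p-values would be too small. Part of the spread between these libraries may be technical. One primitive endoderm marker and the sum over that list are not reported here. Sequences were read from GRCm38.p6. Computations used Python 3.11.15, NumPy 2.4.6 and SciPy 1.17.1, and the test was tried on simulated data. Alternatives covered the share of a region that must be covered, the number of peaks, the merging of peaks, the assignment, the promoter window, the replicate block and the libraries used, and leaving out each library singly was added after seeing the data.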

Additional observations from a re-analysis of the deposited data

Results flagged for a closer look

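Hox regions called per library differed from the 0 h mean in opposite directions early and late, with every library of a time point on the same side, and the difference between time points was not tested. The difference from the 0 h mean was -7.5 regions at 2 h and -8.0 at 4 h. The 8 h mean lay 3.0 regions above it, the 16 h mean 5.5 above, the 24 h mean 5.0 above and the 48 h mean 10.0 above. For the percent of the Hoxa span that lay in peaks, the difference from the 0 h mean was -0.665 percentage points at 4 h and 1.51 at 48 h, again with both libraries of each time point on the same side and the difference not tested. These contrasts share the 0 h libraries.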

How the results depend on the processing

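For the counts, coverage values and named regions together, 511 alternative values were computed for 54 results, of which 422 stayed on the same side of the threshold, within 1.5 times the count, within 1 SD between replicates for a mean or at an equal difference in calling libraries, 48 moved, 41 lost their call and 0 reversed. With the 50000 highest peaks of each library, 29 Hox regions passed the trend test, 19 rising and 10 falling, and 2.60% of the 4 clusters was covered at 0 h. Within 10 kb of a start 9 Hox regions were lost at 48 h (9.47%, against 16.6% of all regions). With a call in at least 1 library against neither, 37 were gained and 25 lost, against 23.1% and 25.6% of all regions. With a window of 1 kb either side of a start, 10 Hox promoters were called in both 0 h libraries. The cause of these shifts was not tested, beside the fewer or more calls that each setting admits by construction. Leaving out libraries gave from 19 gained Hox regions (16.1%, against 16.5% of all regions) to 38 (32.2%, against 21.1%). Lost Hox regions ran from 16 (13.6%, against 17.6% or 18.1% without the first or second 48 h library) to 23 (19.5%, against 23.0%). The trend count then ran from 0 to 20, with 0 to 12 rising and 0 to 12 falling. As a share of those tested, this was 0% to 26.0% of Hox regions, beside 0% to 33.9% of all regions. Hox promoters called at 48 h ran from 12 to 17 and those at 0 h from 7 to 8, and coverage of the 4 clusters from 2.98% to 3.13% at 0 h and from 3.68% to 4.56% at 48 h. The counts of 0 came from leaving out replicate 1, or replicate 2, of every time point, where the smallest p is 0.0571, so that no region of the genome could pass and 0 had an unadjusted p under 0.05. Leaving out 1 library at a time gave from 8 trend regions, without either 8 h library, to 20 without the first 4 h or the first 48 h replicate. Among single libraries, gains were 32 without the first 48 h replicate. With the replicate number as a block, 7 Hox regions rose and 4 fell, the same 11 regions as without it. The deviations of same-numbered libraries from their time-point means correlated between -0.0205 and 0.0175 over all regions, and between -0.312 and 0.323 over Hox regions, for 21 pairs of time points, so the numbers were not taken as pairs, although replicate 1 had fewer peaks and fewer bases in peaks than replicate 2 at all 7 time points. Without the 0 h libraries 8 of the 11 regions passed, those that did not being Hoxb3 at 1788 bases (adjusted p = 0.0622 in the exact test), Hoxc4 at 6701 bases (0.0622) and Hoxc12 (0.238). The unknown read depth limits every missing call.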
